A study of Mus musculus with 18 samples.

Results

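The response to U73122 was examined on 6 arrays of the series, the ones labelled mouse 1, out of 18 arrays in all. They were chosen by their sample labels: 3 arrays of cells treated with 1 µM U73122 for 24 h and 3 arrays of untreated cells. Per the labels, all samples were cells sorted by a surface marker from primary colon tumours of C57Bl/6 mice aged 17 weeks that carried the Fapbl-Cre driver and the Apc2lox14/+ allele, and both treated and untreated cells were maintained with Dox. The other 12 arrays hold the same treatment for mice 5 and 7, with 3 arrays in each of the 4 groups. U73122 is a small molecule widely used to inhibit phospholipase C, the enzyme family that cleaves a membrane phosphoinositide into diacylglycerol and inositol trisphosphate, and its epsilon form is the target given in the title of the series. The question put to these arrays was which transcripts differed between treated and untreated cells under this mouse label.

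Levels below are log2 signals after background correction and quantile normalization, and differences are treated minus untreated on that scale. A gene was called when limma, fitted over 11406 genes and all 18 arrays, gave an adjusted p under 0.05, two-sided; "rose" and "fell" are used only of called genes. The labels do not say whether the 3 replicates of a group were separate cultures, and the p-values therefore reflect array-to-array spread that may be technical in part. The sex-linked transcripts given below split the untreated arrays, so the spread of that group is not technical alone.

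The arrays carried the transcripts of brown fat rather than of colon epithelium. Brown fat burns fatty acids to make heat: Ucp1, the uncoupling protein of its mitochondria, lets protons bypass the synthesis of ATP, and Cidea is a lipid droplet protein abundant in this tissue. Ucp1 stood at 13.62, 13.40 and 13.85 on the treated arrays, against 13.62, 12.35 and 13.15 on the untreated arrays, while the 12 arrays of the other labels held 4.22 to 5.91. Cidea stood at 12.97, 13.24 and 13.06 on the treated arrays, against 13.56, 12.99 and 13.50 on the untreated arrays. Both markers were bright on every array of this label, in both groups. Epcam, an adhesion molecule of epithelia, was detected on 0 of the 6 arrays. It was also detected on 0 of the 12 arrays of the other labels, so its probe does not set these arrays apart. Between 4 and 8 of 24 colon epithelium genes were detected on any of the 6 arrays. The labelled tissue was thus not borne out by these genes, though whether the Epcam probe works was not tested. The arrays are called here by their label, mouse 1.

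Transcripts of the sex chromosomes and of muscle set these arrays apart from each other. Xist, which coats and silences an X chromosome, stood at 10.57, 10.44 and 10.38 on the treated arrays, against 4.63, 10.55 and 4.98 on the untreated arrays. Eif2s3y, a gene of the Y chromosome, stood at 4.47, 4.55 and 4.26 on the treated arrays, against 10.21, 4.34 and 10.08 on the untreated arrays. Untreated replicates 1 and 3 thus carried the Y-linked transcript, and untreated replicate 2 and all 3 treated arrays carried Xist, although 1 mouse number covers them all. For untreated replicates 1 and 3, treatment and this difference cannot be told apart.

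Skeletal muscle fibres contract by sliding actin and myosin filaments, released by calcium through the troponin complex and fuelled by creatine phosphate and glycogen. A muscle score, the mean of 12 fast-muscle genes, stood at 12.31, 12.40 and 10.72 on the treated arrays, against 4.96, 10.06 and 7.35 on the untreated arrays. All 3 treated arrays were above all 3 untreated arrays, but treated replicate 3 and untreated replicate 2 lay next to each other, and untreated replicate 1 was near the 4.64 to 4.74 of the mouse 7 arrays. The mouse 5 arrays, all rich in muscle transcripts, ranged from 13.91 to 14.17. Of 21 fast sarcomere genes on the array, 21, 21 and 20 were detected on the treated arrays, against 9, 20 and 15 on the untreated arrays. On bulk arrays, fewer cells of a type and less RNA per cell cannot be told apart.

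**Figure D1:**
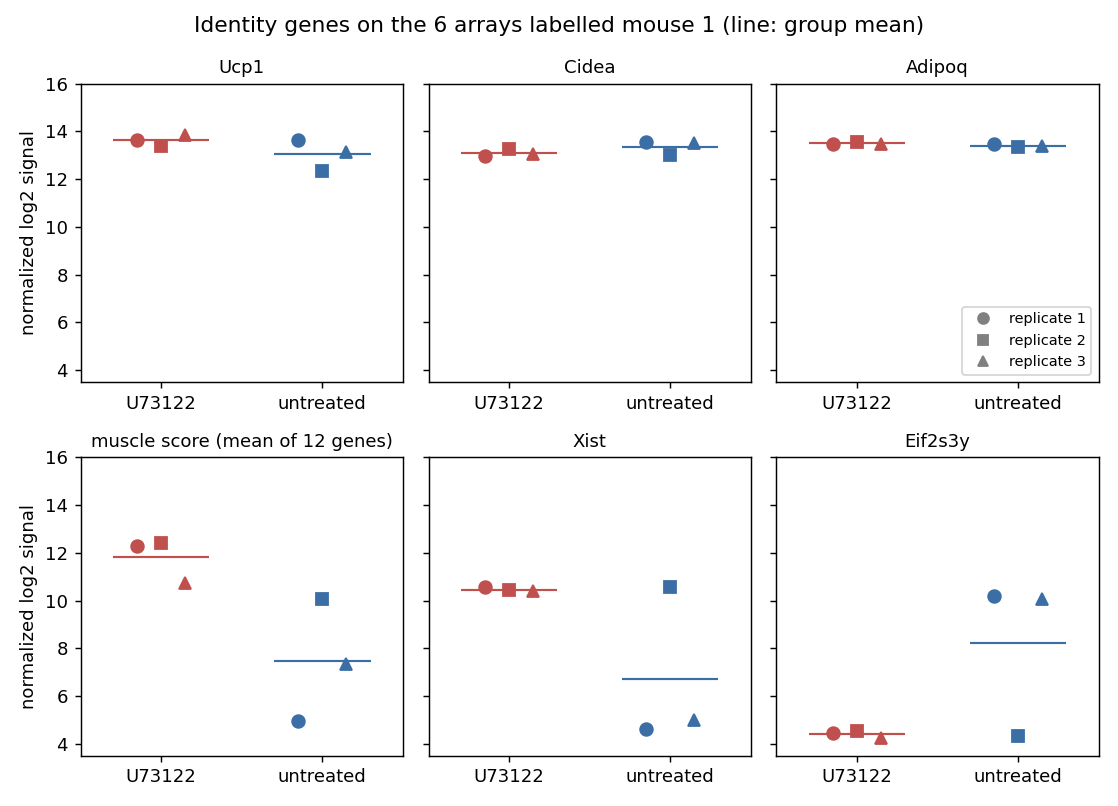
Normalized log2 signal of Ucp1, Cidea, Adipoq, the 12-gene muscle score, Xist and Eif2s3y on the 6 arrays labelled mouse 1, with U73122-treated arrays in red and untreated arrays in blue, marker shape for the replicate and a line at each group mean. The fat genes lie between 12.35 and 13.85 throughout, whereas the muscle score of the untreated arrays spans 4.96 to 10.06 and Xist and Eif2s3y split them.

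With U73122, 101 of 11406 genes were called (0.885% of those tested), of which 88 rose (0.772%) and 13 fell (0.114%). The rises were led by genes of fast skeletal muscle. To keep muscle content in view, a gene was called muscle-associated when its mean on the mouse 5 arrays was at least 4-fold its mean on the mouse 7 arrays. The rule is not specific to muscle. It also takes in 14 of 22 fibroblast and matrix genes, 5 of 23 adipocyte genes and 4 of 16 endothelial genes tested. Col1a1, Adipoq and Flt1 are among them. By that rule 64 of the 88 genes that rose and 0 of the 13 that fell were muscle-associated, against 1031 of all 11406 genes (9.04%). The treated and untreated arrays did not overlap for 69 of the 88 rises and for all 13 falls, against 1763 of all genes (15.5%). The median difference of all genes was -0.01, with 5453 of the 11406 higher and 5953 lower by value. At an unadjusted p under 0.05, 1307 genes passed, 723 of them higher.

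The number of calls rested on single arrays. It was 18 without treated replicate 1, 34 without treated replicate 2 and 30 without untreated replicate 3, against 243 without treated replicate 3 and 167 without untreated replicate 2. Only 15 genes were called in all 6 of these fits, 11 of them muscle-associated. A fit to the 6 arrays of this label alone called 1 gene. The SD of the muscle score was 0.94 on the treated and 2.56 on the untreated arrays. On the mouse 5 and mouse 7 arrays the score was nearly even. For muscle genes the pooled SE can thus understate the spread of these 6 arrays. Ckm, with an SE of 0.89, had an SD of 1.10 on the treated and 2.95 on the untreated arrays.

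**Figure D2:**
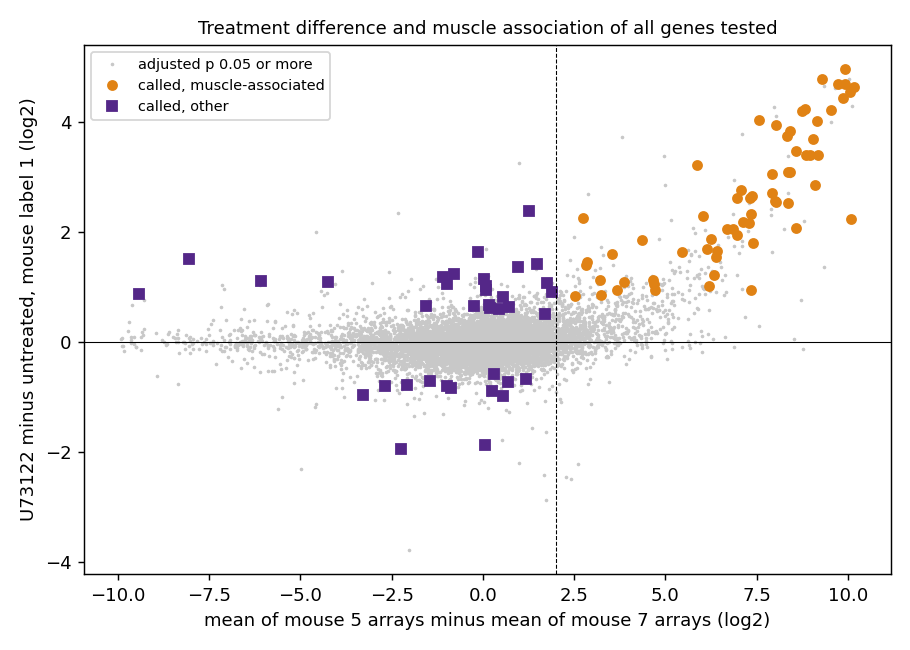
Difference between U73122-treated and untreated arrays of mouse label 1 (vertical axis, log2) against the mean of the mouse 5 arrays minus the mean of the mouse 7 arrays (horizontal axis, log2) for 11406 genes. Orange circles are the 64 called muscle-associated genes, to the right of the dashed line at 4-fold, and purple squares are the other 37 called genes, 24 higher and 13 lower.

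Promoter sequences show what part of the muscle-associated rises shares at the start of the gene. They were read from RefSeq promoter windows of build GRCm38.p6, which run from 250 bases before to 50 bases after the start of a gene. CAGCTG, the core bound by the myogenic factors of the MyoD family, reads the same on both strands. It was present in 22 of the 48 muscle-associated rises with a window (45.8%), in 3 of 21 other rises (14.3%) and in 1 of 11 falls (9.09%). It was present in 18.3% of all 27025 genes of the table, in 18.3% of the tested genes with a window and in 25.3% of those that were muscle-associated. The MEF2 consensus, which also reads the same on both strands and overlaps no CAGCTG in the windows printed, was found in 7 of the 48 (14.6%), in 1 of the 21 and in 0 of the 11, against 3.7% of all windows, 2.35% of those of tested genes and 5.79% of those of tested muscle-associated genes. A match is a description of the letters only. Of the 12 genes with the largest rises 10 had a window, and the 5 of these that hold CAGCTG are printed 5′ to 3′ because they carry the finding, with CAGCTG and the MEF2 consensus in capitals. They are Mylpf at chr7:127211358-127211657 (plus strand), Ckm at chr7:19410844-19411143 (plus strand), Myh4 at chr11:67237562-67237861 (plus strand), Pgam2 at chr11:5803747-5804046 (minus strand) and Ckmt2 at chr13:91876836-91877135 (minus strand).
Mylpf: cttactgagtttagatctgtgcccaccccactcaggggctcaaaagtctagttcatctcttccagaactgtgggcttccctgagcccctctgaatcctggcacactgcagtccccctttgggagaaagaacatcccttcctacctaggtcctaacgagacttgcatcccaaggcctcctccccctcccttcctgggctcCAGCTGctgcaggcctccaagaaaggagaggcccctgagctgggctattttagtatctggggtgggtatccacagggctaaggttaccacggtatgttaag
Ckm: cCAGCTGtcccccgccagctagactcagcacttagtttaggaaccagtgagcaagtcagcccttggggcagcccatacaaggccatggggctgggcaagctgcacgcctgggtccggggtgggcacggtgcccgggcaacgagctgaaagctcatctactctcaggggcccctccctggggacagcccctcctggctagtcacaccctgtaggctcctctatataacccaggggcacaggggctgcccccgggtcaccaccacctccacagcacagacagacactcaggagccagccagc
Myh4: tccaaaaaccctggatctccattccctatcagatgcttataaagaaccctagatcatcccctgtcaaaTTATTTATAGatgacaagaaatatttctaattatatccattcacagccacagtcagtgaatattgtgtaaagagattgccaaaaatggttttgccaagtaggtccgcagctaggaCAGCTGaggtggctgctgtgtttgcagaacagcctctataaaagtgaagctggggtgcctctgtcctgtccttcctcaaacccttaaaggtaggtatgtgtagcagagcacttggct
Pgam2: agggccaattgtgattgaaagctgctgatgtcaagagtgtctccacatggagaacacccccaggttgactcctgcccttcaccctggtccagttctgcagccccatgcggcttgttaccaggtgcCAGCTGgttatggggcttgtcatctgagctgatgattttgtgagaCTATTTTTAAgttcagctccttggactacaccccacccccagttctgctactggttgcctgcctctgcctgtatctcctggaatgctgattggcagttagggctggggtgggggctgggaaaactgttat
Ckmt2: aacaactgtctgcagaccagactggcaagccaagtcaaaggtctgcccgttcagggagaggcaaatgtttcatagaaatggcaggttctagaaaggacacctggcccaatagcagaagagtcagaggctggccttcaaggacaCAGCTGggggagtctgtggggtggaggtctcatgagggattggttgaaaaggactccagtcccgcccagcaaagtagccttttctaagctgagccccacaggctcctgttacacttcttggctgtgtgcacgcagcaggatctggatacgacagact
Myh4 and Pgam2 hold both motifs, and the other 3 hold CAGCTG alone.

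Among fast sarcomere genes, 10 of 21 tested rose, 0 fell and all 21 were higher by value, with a median difference of 4.01. Mylpf, the regulatory light chain of fast myosin, stood at 13.50, 13.47 and 12.04 on the treated arrays, against 5.38, 10.98 and 8.26 on the untreated arrays. It rose by 4.80 ± 0.83 (SE, n = 3 arrays each; limma adjusted p = 0.00882), a ratio of 27.8. Its treated arrays were all above its untreated arrays, with untreated replicate 2 close below treated replicate 3. Tnnc2, the calcium sensor of fast troponin, stood at 13.77, 13.86 and 12.30 on the treated arrays, against 5.52, 11.94 and 8.55 on the untreated arrays, a rise of 4.64 ± 0.94 (limma adjusted p = 0.0233). Myh4, the myosin heavy chain of the fastest fibres, stood at 11.99, 11.87 and 10.38 on the treated arrays, against 4.42, 9.36 and 6.80 on the untreated arrays, a rise of 4.55 ± 0.74 (limma adjusted p = 0.00599). These genes followed 1 order over the untreated arrays, with replicate 2 the highest and replicate 1 the lowest. Tnnt3, the fast troponin T, rose by 4.44, Myh1, another fast myosin heavy chain, by 4.22, and Mybpc1 and Myoz1, which bind thick filaments and the Z disc, by 3.41 each. In these 4 genes the groups overlapped: treated replicate 3 lay below untreated replicate 2, at 9.46 against 10.35 for Myh1. The probes of Mybpc1 differed by 0.01 to 3.41. Acta1, the skeletal actin, had a difference of 4.79 and Tnni2, the fast troponin I, one of 4.66, and neither was called (limma adjusted p = 0.0636 and 0.0562).

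Mybpc2, Actn3 and Myl1 stayed called whichever of the 6 arrays was left out. Mybpc2, the fast myosin-binding protein C, stood at 9.92, 9.92 and 7.73 on the treated arrays, against 4.91, 5.16 and 4.76 on the untreated arrays. The gap between its groups was wide, and untreated replicate 2, for all its muscle score of 10.06, was not set apart from the other untreated arrays. Those 3 values lay near the lowest detected signals of the untreated arrays, 4.80 to 4.85, which limits their reading against the score. It rose by 4.24 ± 0.44 (SE, n = 3 each; limma adjusted p = 0.000286), and by 3.88 to 4.97 with 1 array left out. Actn3, the alpha-actinin of fast Z discs, stood at 10.19, 10.34 and 8.46 on the treated arrays, against 4.36, 7.64 and 4.82 on the untreated arrays, a rise of 4.05 ± 0.59 (limma adjusted p = 0.00311), with its probes between 2.28 and 4.05. Myl1, the essential light chain of fast myosin, stood at 14.64, 14.70 and 13.82 on the treated arrays, against 11.54, 13.04 and 11.85 on the untreated arrays, a rise of 2.25 ± 0.28 (limma adjusted p = 0.000905). In both genes the groups did not overlap, and untreated replicate 2 was the highest untreated array. The other 7 called members lost their call without treated replicate 1, and all but Myh4 also lost it without treated replicate 2; Tnnc2, Tnnt3, Myh1, Mybpc1 and Myoz1 lost it without untreated replicate 3 as well, and all of these but Tnnc2 without untreated replicate 1. The difference of Tnnc2 ranged from 3.07 to 6.28 over these fits.

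Of 13 slow and cardiac sarcomere genes tested, 1 rose, 0 fell and 12 were higher by value, with a median difference of 2.54. The gene that rose was Actc1, the alpha-actin of heart and developing muscle, at 8.43, 9.33 and 8.54 on the treated arrays, against 4.51, 5.01 and 4.71 on the untreated arrays. It rose by 4.03 ± 0.57 (SE, n = 3 each; limma adjusted p = 0.00279), its groups lay far apart, and it stayed called whichever array was left out, at 3.75 to 4.20. Its other probe differed by 2.03. As with Mybpc2, untreated replicate 2 was not high. Actc1 was detected on only 1 of the 3 untreated arrays, whose lowest detected signals were 4.80 to 4.85. So near background, its order among the untreated arrays says little on the muscle score. Slow fibre genes behaved otherwise. Myl2, the slow and ventricular regulatory light chain, stood at 12.21, 12.22 and 8.86 on the treated arrays, against 4.60, 11.35 and 4.49 on the untreated arrays, with overlapping groups and a difference of 4.28 ± 1.23 (limma adjusted p = 0.126). Myl3 and Tnnt1, the slow light chain and slow troponin T, had differences of 3.79 and 3.39 with limma adjusted p of 0.123 and 0.176. In all 3, treated replicate 3 lay below untreated replicate 2.

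**Figure D3:**
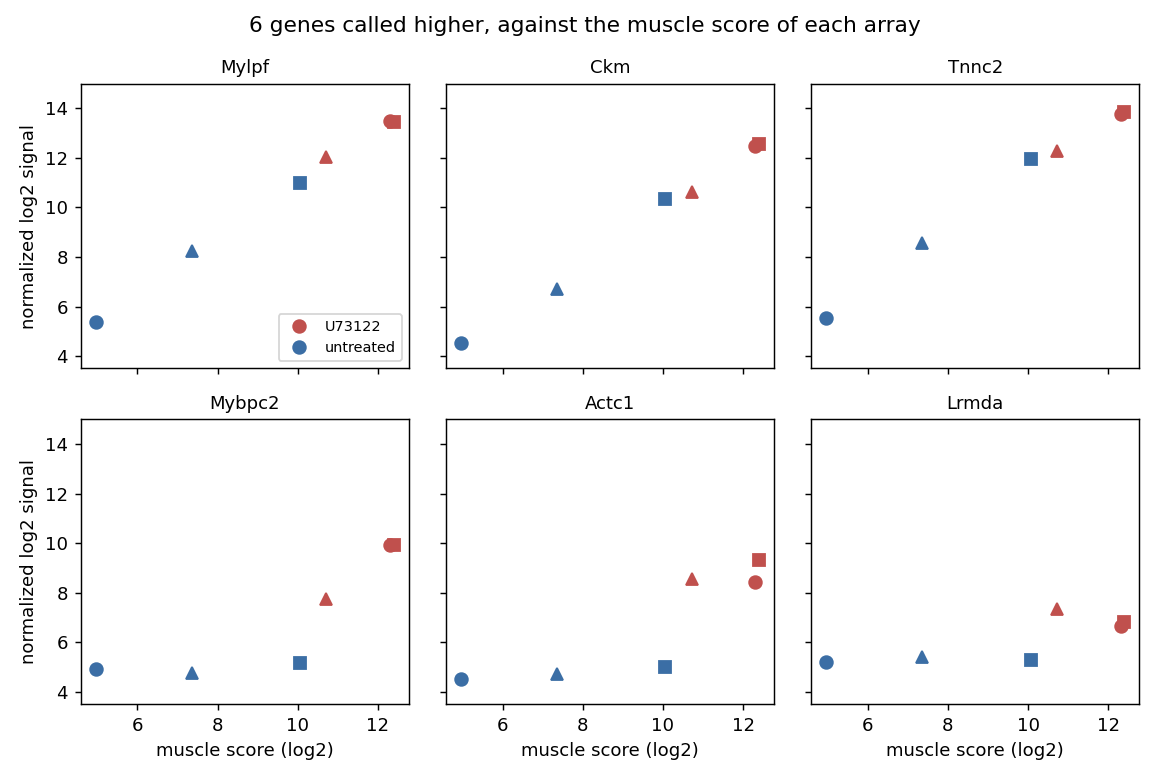
Normalized log2 signal of 6 genes that rose against the muscle score of the same array (log2), with U73122-treated arrays in red, untreated arrays in blue and marker shape for the replicate (circle 1, square 2, triangle 3). Mylpf, Ckm, Tnnc2 and Mybpc2 belong to the score. Mylpf, Ckm and Tnnc2 climb with it over all 6 arrays. In contrast, Mybpc2, Actc1 and Lrmda are at 4.51 to 5.41 on the untreated arrays over scores of 4.96 to 10.06. For Mybpc2 and Actc1 these values lie near the lowest detected signals, 4.80 to 4.85.

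In muscle calcium handling, 4 of 14 genes tested rose, 0 fell and all 14 were higher by value, with a median difference of 1.18. Pvalb, parvalbumin, the calcium buffer of fast fibres, had the largest rise of all genes, 4.98 ± 0.74 (SE, n = 3 each; limma adjusted p = 0.00359), a ratio of 31.5. It stood at 13.82, 13.78 and 12.52 on the treated arrays, against 5.64, 10.53 and 9.02 on the untreated arrays, without overlap, and stayed called whichever array was left out. Hrc, a calcium-binding protein of the sarcoplasmic reticulum, rose by 3.10, with treated replicate 3 (7.51) below untreated replicate 2 (7.78). Srl, sarcalumenin of the same store, rose by 2.09 without overlap by its brightest probe, while its probes ranged from 0.14 to 2.09. Casq1, calsequestrin, stood at 7.69, 8.09 and 5.84 on the treated arrays and was not detected on any untreated array, where its measured values were 4.32, 4.70 and 4.31, so it was at least 5.20-fold higher (limma adjusted p = 0.00587). Atp2a1, the calcium pump of fast fibres, had a difference of 4.62 and was not called (limma adjusted p = 0.0593). The calls of Hrc, Srl and Casq1 were lost without treated replicate 1, and those of Hrc and Srl also without treated replicate 2 or untreated replicate 3, at 2.56 to 4.06 for Hrc, 1.78 to 2.62 for Srl and 2.32 to 3.45 for Casq1 over the 6 fits. The call of Hrc was lost without untreated replicate 1 as well.

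Of 16 muscle energy supply genes tested, 8 rose, 0 fell and 14 were higher by value, with a median difference of 2.07. Ckm, the cytosolic creatine kinase of muscle, stood at 12.47, 12.57 and 10.62 on the treated arrays, against 4.51, 10.36 and 6.71 on the untreated arrays, a rise of 4.69 ± 0.89 (SE, n = 3 each; limma adjusted p = 0.016). Ckmt2, its mitochondrial partner, stood at 11.52, 11.56 and 9.20 on the treated arrays, against 4.56, 8.51 and 5.10 on the untreated arrays, a rise of 4.70 ± 0.72 (limma adjusted p = 0.00474). For Ckm the lowest treated array was just above the highest untreated array, and for Ckmt2 the gap was wider. Pgam2 and Eno3, muscle forms of 2 enzymes of glycolysis, rose by 4.21 and 3.84; Ampd1, the muscle AMP deaminase, by 3.49; and Mb, myoglobin, by 2.87. Mb stood at 11.96, 12.14 and 9.26 on the treated arrays, against 8.10, 8.15 and 8.52 on the untreated arrays, where its level did not follow the muscle score. Phkg1 and Pygm, which act on glycogen, rose by 2.18 and 1.95. Ckmt2, Pgam2 and Eno3 stayed called whichever array was left out; Ckm, Ampd1, Mb and Phkg1 lost the call without treated replicate 1, treated replicate 2 or untreated replicate 3, and Pygm without treated replicate 1, at 3.35 to 6.28 for Ckm. Pfkm, Ldha and Adssl1, enzymes of glycolysis and of purine synthesis, stood above 10 on all 6 arrays and were not called, with differences of 0.54, 0.46 and 0.36 (limma adjusted p = 0.139, 0.243 and 0.340).

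The remaining 41 muscle-associated rises were in none of these 4 lists. Over all 64, untreated replicate 2 was the highest untreated array in 57 and treated replicate 3 the lowest treated array in 62, which is the order of the muscle score. In 41 of the 64 the probe was detected on fewer than 3 untreated arrays. Over all tested genes, untreated replicate 2 was the highest untreated array in 4122 and treated replicate 3 the lowest treated array in 3991 of 11406. With the muscle score as a covariate within this label, 3 of the 64 were called in the same direction, namely Mybpc2, Tmem182 and Gpc3. The score is the mean of 12 genes that include Ckm, Tnnc2, Tnnt3 and Mybpc2, so members are adjusted in part for themselves and their differences average 0 by construction; for them the fit shows only standing relative to the other members. In that fit the fast sarcomere median was -0.61 and the slow and cardiac median -1.52, and Ckm, Tnnc2, Tnnt3 and Myh1 had differences of -0.31, -0.65, -0.64 and -0.61. The fit called 164 genes (1.44% of those tested), 13 of them among the 101. Untreated replicate 2 was the highest or lowest of the 6 arrays in 152 of the 164 (92.7%), against 49.9% of all genes, so the calls of that fit lean on 1 array.

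The other 24 rises were not muscle-associated, and most did not follow the order of the muscle score. Untreated replicate 2 was the highest untreated array in 5 of them, against 4122 of all 11406 genes. Treated replicate 3 was the lowest treated array in 8, against 3991 of all 11406, which is near the share over all genes. Their groups were apart in 22 of 24, against 15.5% of all genes. The calls were made on the same arrays, so this separation adds no support. With the muscle score as a covariate 10 of the 24 were called, against 1.44% of all genes. With muscle-associated genes left out before adjustment, 13 of the 24 stayed called. Tcea3, an elongation factor of RNA polymerase II, led the 24 rises. It stood at 9.75, 9.96 and 8.11 on the treated arrays, against 6.30, 8.24 and 6.11 on the untreated arrays. Unlike most of the 24, it had both traits of the order of the muscle score. It rose by 2.38 ± 0.45 (SE, n = 3 each; limma adjusted p = 0.016), but treated replicate 3 lay below untreated replicate 2, and its means of 12.94 on the mouse 5 arrays and 11.67 on the mouse 7 arrays differed by less than the 4-fold of the muscle rule. It lost its call without treated replicate 1, treated replicate 2 or untreated replicate 3, at 2.00 to 3.06 over the 6 fits.

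Lrmda, a leucine-rich repeat protein named for melanocyte differentiation, stood at 6.65, 6.84 and 7.34 on the treated arrays, against 5.21, 5.29 and 5.41 on the untreated arrays. The untreated arrays were alike, all treated arrays were higher, and treated replicate 3 was the highest. That array had the lowest muscle score of the treated arrays, and all untreated arrays had lower scores still. It rose by 1.64 ± 0.18 (SE, n = 3 each; limma adjusted p = 0.000327), a ratio of 3.12. Pon1, paraoxonase, a lactonase carried on high-density lipoprotein, stood at 8.61, 8.90 and 9.62 on the treated arrays, against 7.35, 7.32 and 7.89 on the untreated arrays, a rise of 1.52 ± 0.26 (limma adjusted p = 0.00844). Acaa1b, a thiolase of peroxisomal fatty acid oxidation, stood at 8.14, 8.02 and 8.39 on the treated arrays, against 7.20, 7.18 and 7.54 on the untreated arrays, a rise of 0.88 ± 0.15 (limma adjusted p = 0.00716). None of these 3 genes overlapped between groups, all 3 stayed called whichever array was left out, and Lrmda and Pon1 were called with the muscle score as a covariate. The second probe of Pon1 differed by 0.22. Pon1 and Acaa1b were bright on the mouse 7 arrays, with means of 13.02 and 13.93, where Hpx, a plasma protein made by liver, ranged from 14.44 to 14.69; none of the 6 mouse 1 arrays detected Hpx. Those 3 were the only rises outside the muscle-associated set to stay called in all 6 such fits.

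Slc7a10, a transporter of small neutral amino acids on the surface of fat cells, stood at 6.53, 6.58 and 7.05 on the treated arrays, against 5.69, 5.38 and 4.96 on the untreated arrays, a rise of 1.37 ± 0.23 (SE, n = 3 each; limma adjusted p = 0.00716). Slc25a10, the dicarboxylate carrier of the inner mitochondrial membrane, stood at 6.79, 6.54 and 6.85 on the treated arrays, against 5.62, 5.24 and 6.02 on the untreated arrays, a rise of 1.10 ± 0.19 (limma adjusted p = 0.00919). Both were higher on all 3 treated arrays than on any untreated array. Fasn, fatty acid synthase, stood at 6.04, 5.27 and 6.06 on the treated arrays, against 5.31, 4.40 and 4.45 on the untreated arrays, of which 1 detected it. Its rise was 1.07 ± 0.24 (limma adjusted p = 0.0392), and treated replicate 2 lay just below untreated replicate 1. Akr1c18 and Akr1c12, aldo-keto reductases that act on steroids in mice, rose by 1.16 and 1.11. Psat1, an aminotransferase of serine synthesis, rose by 1.18, Slc47a1, an exporter of organic cations, by 1.24 (0.16 by its lowest probe), and Rpia, of the pentose phosphate pathway, by 0.64. Slc7a10 lost its call without untreated replicate 3 and Slc25a10 without treated replicate 1; the other 6 lost theirs without treated replicate 1 and without untreated replicate 3.

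Cd209f and Cd209d, C-type lectins related to a receptor of dendritic cells, rose by 1.43 and 0.96, and Cma1, the chymase of mast cells, by 1.08. Cd209f stood at 7.63, 8.01 and 7.97 on the treated arrays, against 6.99, 5.48 and 6.86 on the untreated arrays, with limma adjusted p = 0.0392, and Cma1 at 6.71, 6.70 and 6.61 on the treated arrays, against 6.14, 5.40 and 5.24 on the untreated arrays, with limma adjusted p = 0.0173. In both genes every treated array was above every untreated array. All 3 lost the call without treated replicate 1, treated replicate 2 or untreated replicate 3, and Cd209f also without treated replicate 3 or untreated replicate 2, at 0.94 to 1.70. Of 14 macrophage genes tested 0 were called, 11 were higher by value, and the mean level of the list ranged from 7.66 to 8.17 on the treated arrays and from 7.42 to 7.73 on the untreated arrays; the part of immune cell content in these rises was not tested. Of the rises not yet named, Fam220a stood at 8.80, 9.10 and 8.92 on the treated arrays, against 8.14, 8.19 and 7.74 on the untreated arrays, a rise of 0.91 (limma adjusted p = 0.0211). Atp6v1c2, a subunit of the proton pump of acidic vesicles, rose by 1.03, Wipf3 by 0.83, Lypd1 by 0.61 and Arpc5l, of the Arp2/3 complex, by 0.51, while another probe of Arpc5l differed by 0.02 and the probes of Lypd1 differed in sign. Fam220a, Atp6v1c2 and Arpc5l were detected on all 6 arrays, and Wipf3 and Lypd1 on 1 of the 3 untreated arrays. All 5 lost the call without treated replicate 1 or treated replicate 2, at 0.77 to 0.99 for Fam220a. Cplx1, Fbxo46, Olfr213 and Tmem45a2 were not detected on any untreated array and were at least 1.35-fold, 1.31-fold, 1.15-fold and 1.22-fold higher (limma adjusted p = 0.0331, 0.0467, 0.0354 and 0.016). With 1 array left out, Olfr213 was called in 0 of 6 fits, Fbxo46 in 1, Cplx1 in 2 and Tmem45a2 in 4.

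**Figure D4:**
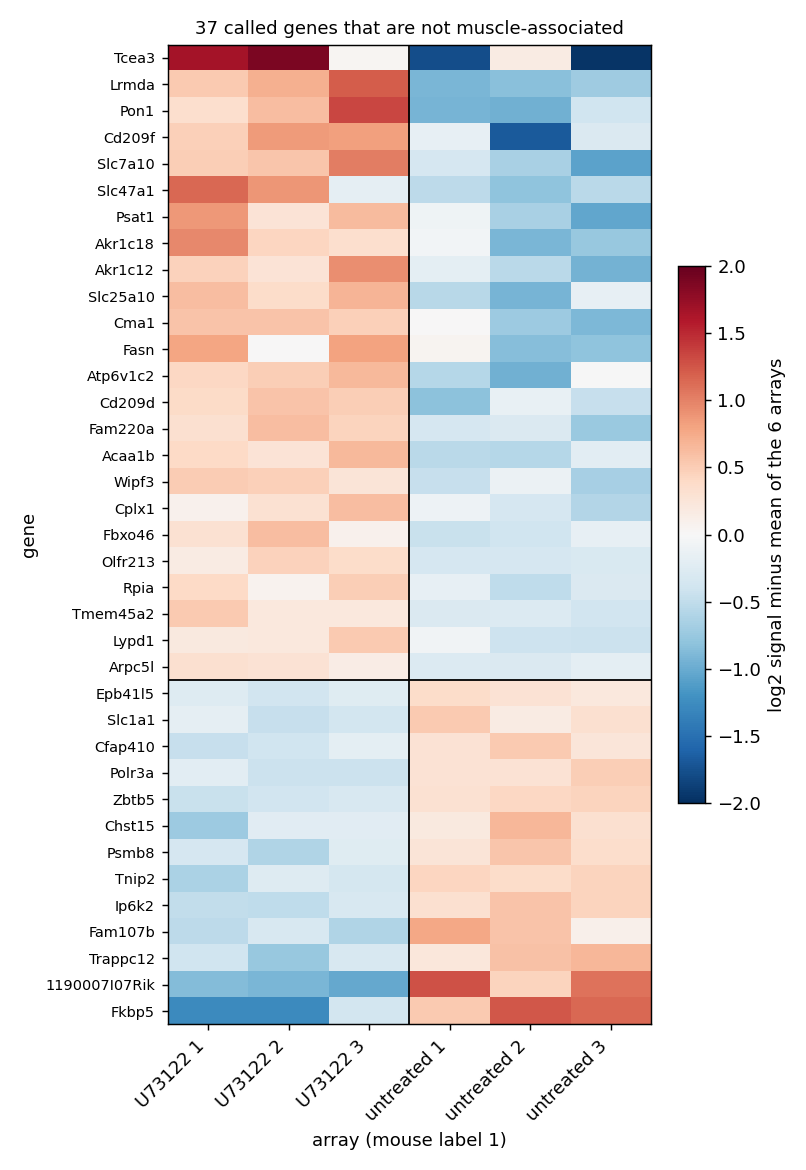
Log2 signal minus the mean of the 6 arrays of mouse label 1 for the 37 called genes that are not muscle-associated, in columns by array (U73122-treated left, untreated right) and ordered by the treatment difference. The 24 genes above the horizontal line rose and the 13 below it fell; Tcea3, at the top, has its treated replicate 3 near its untreated replicate 2.

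Of the 13 genes that fell, none was muscle-associated. All had treated arrays below untreated arrays, against 15.5% of all genes apart in either direction, but they were called on the same arrays. With the muscle score as a covariate 0 of the 13 were called. With muscle-associated genes left out before adjustment, 5 of them stayed called. The largest fall was in Fkbp5, a co-chaperone of the glucocorticoid receptor that glucocorticoids induce. It stood at 5.58, 5.57 and 6.48 on the treated arrays, against 7.37, 8.09 and 7.99 on the untreated arrays, and fell by 1.94 on the log2 scale (SE 0.37, n = 3 each; limma adjusted p = 0.016), a ratio of 3.83. 1190007I07Rik, a gene with no function given here, stood at 6.83, 6.77 and 6.67 on the treated arrays, against 8.97, 8.14 and 8.77 on the untreated arrays, and fell by 1.87 (SE 0.21; limma adjusted p = 0.000327). The treated arrays of 1190007I07Rik were nearly equal, and it was the only fall that stayed called whichever array was left out. Fkbp5 lost its call without treated replicate 1, treated replicate 2 or untreated replicate 3, with differences from -2.24 to -1.78 over the 6 fits.

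The remaining falls were smaller. Psmb8, a catalytic subunit of the immunoproteasome, stood at 8.20, 7.94 and 8.29 on the treated arrays, against 8.80, 9.09 and 8.89 on the untreated arrays, and fell by 0.79 (SE 0.16; limma adjusted p = 0.0211). Ip6k2, an inositol hexakisphosphate kinase, stood at 5.37, 5.36 and 5.54 on the treated arrays, against 6.18, 6.44 and 6.31 on the untreated arrays, and fell by 0.88 (SE 0.18; limma adjusted p = 0.0268). Tnip2, a partner of an inhibitor of NF-kappa-B signalling, fell by 0.83 and Chst15, a sulfotransferase of chondroitin sulfate, by 0.79. For Psmb8, Ip6k2 and Tnip2 the replicates of each group lay closer together than the groups did; for Chst15 the treated arrays spread more widely, from 8.76 to 9.27, against a lowest untreated array at 9.69. Other probes of Psmb8, Ip6k2 and Polr3a gave smaller differences, down to -0.26, -0.07 and -0.09. Polr3a, the largest subunit of RNA polymerase III, fell by 0.72, Slc1a1, a glutamate transporter, by 0.67, and the zinc finger gene Zbtb5 by 0.77. Fam107b was not detected on any treated array and was at least 1.61-fold lower there (limma adjusted p = 0.0236). Trappc12, of a vesicle tethering complex, fell by 0.98 by its brightest probe, but its other probe differed by 1.46 and the mean of its probes by 0.24, so its direction is not settled, and the probes of Cfap410 (a fall of 0.70) also differed in sign. Epb41l5, a protein of epithelial junctions, fell by 0.58, with another of its 3 probes at -0.004. Each of these 11 genes lost its call without treated replicate 1, and Zbtb5 lost it whichever array was left out, at -0.81 to -0.74.

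The brown fat programme itself did not pass the test. Of 18 brown fat thermogenic genes tested, 0 rose and 0 fell, 8 were higher by value and the median difference was -0.06, against -0.01 over all genes. The difference was 0.58 ± 0.34 for Ucp1 and -0.26 ± 0.28 for Cidea (SE, n = 3 each; limma adjusted p = 0.565 and 0.817), with overlapping groups for both. Slc27a2, a fatty acid transporter and acyl-CoA synthetase, had the smallest p of the list: it stood at 10.48, 10.82 and 11.30 on the treated arrays, against 11.41, 11.85 and 11.64 on the untreated arrays, a difference of -0.77 ± 0.19 (limma adjusted p = 0.0602). Its treated arrays were all below its untreated arrays. Acot11, an acyl-CoA thioesterase, had a difference of 1.07 (limma adjusted p = 0.234), set mainly by untreated replicate 2, which stood at 7.79 against 9.31 to 10.35 on the other 5 arrays. Zic1 and Ebf2, transcription factors of brown fat precursors, had differences of -0.80 and -0.29 (limma adjusted p = 0.435 and 0.563). The mean level of the list ranged from 10.98 to 11.13 on the treated arrays and from 10.84 to 11.17 on the untreated arrays, a narrower span than that of the muscle score.

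Genes of fat cells in general were as even. Of 23 adipocyte and lipid droplet genes tested, Slc7a10 rose, 0 fell and 9 were higher by value, with a median difference of -0.06. Adipoq, the hormone adiponectin, stood at 13.48, 13.54 and 13.49 on the treated arrays, against 13.48, 13.35 and 13.39 on the untreated arrays. Cebpa, a transcription factor of fat cell differentiation, had a difference of -0.62 and Plin1, the lipid droplet coat, one of -0.32 (limma adjusted p = 0.278 and 0.464). In fatty acid synthesis, Fasn was the only one of 18 genes called, 13 were higher by value and the median was 0.25. Scd1, the desaturase that makes monounsaturated fatty acids, stood at 12.03, 12.14 and 12.57 on the treated arrays, against 11.23, 7.78 and 10.70 on the untreated arrays, a difference of 2.35 ± 0.65 (SE, n = 3 each; limma adjusted p = 0.110). The treated arrays were all above the untreated arrays, and untreated replicate 2 was far below the rest. Me1, malic enzyme, had a difference of 0.91 and Acly, ATP citrate lyase, one of 0.51 (limma adjusted p = 0.0610 and 0.305). Cholesterol genes were higher by value in 11 of 12, with a median of 0.13 and 0 called; Stard4 had a difference of 0.65 (limma adjusted p = 0.448).

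Genes that glucocorticoids and fasting induce were mostly lower by value. Of 25 tested, Fkbp5 fell, 0 rose and 22 were lower by value, against 5953 of all 11406 genes. The median of the list was -0.39, and it was -0.41 for mouse 5 and 0.07 for mouse 7. Zbtb16, a transcription factor that glucocorticoids induce, stood at 7.59, 8.34 and 8.28 on the treated arrays, against 8.39, 9.30 and 8.70 on the untreated arrays, a difference of -0.73 ± 0.36 (SE, n = 3 each; limma adjusted p = 0.454). Per1, a clock gene with a glucocorticoid response, had a difference of -0.72 (limma adjusted p = 0.395). Both showed the lowest value on treated replicate 1 and the highest on untreated replicate 2. Lcn2, a secreted lipid-binding protein, had the largest negative difference of the list, -2.31, and rested on untreated replicate 2, at 10.24 against 5.09 to 6.81 on the other arrays (limma adjusted p = 0.524). Of 13 circadian clock genes 0 were called, 10 were lower by value and the median was -0.35. Nr1d1, a repressor of the clock, stood at 6.28, 6.16 and 5.48 on the treated arrays, against 5.55, 8.92 and 6.02 on the untreated arrays (limma adjusted p = 0.673). Nr1d2 and Dbp were likewise highest on untreated replicate 2, at 8.68 and 8.59, and Arntl, which oscillates in antiphase to them, was lowest there, at 6.67. Per2 did not follow that array: it stood at 7.79, 8.21 and 8.96 on the treated arrays, against 9.26, 9.16 and 9.09 on the untreated arrays, with a difference of -0.85 ± 0.33 (limma adjusted p = 0.314).

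Fibroblast and matrix genes were higher by value in 20 of 22, with a median of 0.88 and 0 called. Mmp2, a matrix metalloproteinase, stood at 10.01, 10.03 and 9.97 on the treated arrays, against 9.36, 8.82 and 9.19 on the untreated arrays, a difference of 0.88 ± 0.21 (SE, n = 3 each; limma adjusted p = 0.0550). Fap, a protease of activated fibroblasts, had a difference of 1.18, Loxl1, which crosslinks elastic fibres, one of 0.93 and Dcn, the proteoglycan decorin, one of 0.55 (limma adjusted p = 0.0511, 0.0834 and 0.0732), although the probes of Dcn ranged from -0.41 to 0.62. In all 4 genes the treated arrays were above the untreated arrays. Of the 22, 14 were muscle-associated by the rule above. The mean level of the list ranged from 9.03 to 9.34 on the treated arrays and from 8.01 to 8.86 on the untreated arrays, and with the muscle score as a covariate its median was 1.34. The part of connective tissue content in the other rises was not tested.

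The lists of other cell types held no called gene. Endothelial genes were lower by value in 13 of 16, with a median of -0.11 and 0 called; Pecam1, a junction protein of endothelium, had a difference of -0.38 (limma adjusted p = 0.278). Lymphocyte genes were dim: of 9 on the array, at most 2 were detected on a treated array and at most 3 on an untreated one. Cd3g, a chain of the T cell receptor complex, was detected on 0 treated and 3 untreated arrays, at 4.49 to 4.69 and 4.81 to 5.18, and Nkg7, of cytotoxic granules, on 2 treated and 3 untreated arrays, at 4.61 to 5.64 and 5.07 to 5.39. Neither was called (limma adjusted p = 0.243 and 0.935), and Cd3e, another chain, stood at 4.64 to 4.71 and 4.55 to 4.74. Red cell genes had a median of 0.20 over 5, with 4 higher by value and 0 called. Hbb-bt, a beta-globin, was between 14.33 and 14.60 on all 6 arrays and was the lower one, at -0.14. Hbb-b2, another beta-globin, stood at 8.82, 8.67 and 9.12 on the treated arrays, against 8.02, 8.47 and 7.45 on the untreated arrays. Its difference was 0.89 and that of Alas2 0.57 (limma adjusted p = 0.471 and 0.732). Schwann cell genes had a median of 0.31 over 4, led by Pmp22, a myelin protein (0.88; limma adjusted p = 0.270). Of 14 colon epithelium genes tested, 7 were higher by value and 0 were called. Lgals4, a lectin of gut epithelium, was the brightest, at 8.45, 8.91 and 8.82 on the treated arrays, against 8.70, 10.25 and 9.35 on the untreated arrays (limma adjusted p = 0.380).

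The family that U73122 is used to inhibit showed no called change in transcript level. Plce1, which encodes the epsilon form, was not above background on any of the 6 arrays, at 4.38 to 4.67 on the treated arrays and 4.39 to 4.65 on the untreated arrays, which gives no level for it here. Of 9 phospholipase C genes tested 0 were called, 6 were higher by value and the median was 0.14. Plcd3, of the delta class, stood at 6.85, 6.60 and 6.64 on the treated arrays, against 7.06, 7.19 and 7.55 on the untreated arrays, a difference of -0.57 ± 0.17 (SE, n = 3 each; limma adjusted p = 0.140), with every treated array below every untreated array. Downstream, 0 of 20 calcium and protein kinase C signalling genes were called, with a median of 0.03. Rcan2, an inhibitor of calcineurin, was detected on 0 of the 3 untreated arrays and was by value at least 1.78-fold higher (limma adjusted p = 0.0602). Prkcq, the theta protein kinase C of muscle and T cells, had a difference of 0.87 (limma adjusted p = 0.103). Rasgrp3, a Ras activator that binds diacylglycerol, stood at 7.96, 7.78 and 7.79 on the treated arrays, against 7.67, 5.56 and 6.87 on the untreated arrays (limma adjusted p = 0.145), with untreated replicate 2 again the lowest. Apc, the tumour suppressor whose floxed allele the mice carry, stood at 4.73, 4.87 and 5.75 on the treated arrays, against 5.53, 5.65 and 5.23 on the untreated arrays. Its groups overlapped; where its probe lies relative to the floxed part is not given in the sources used here.

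Signalling, stress and growth genes added 1 call over 5 lists. JAK and STAT genes had a median of -0.01 over 10 with 0 called; Jak2, a kinase of cytokine receptors, had a difference of -0.59 and Stat3, its target, one of -0.49 (limma adjusted p = 0.163 and 0.360). Immediate early genes had a median of -0.01 over 17 with 0 called. Fos stood at 10.22, 8.57 and 6.63 on the treated arrays, against 7.18, 6.63 and 5.88 on the untreated arrays, a difference of 1.91 ± 0.64 (SE, n = 3 each; limma adjusted p = 0.210), with a spread among treated arrays larger than the difference. For mitosis and DNA replication the median was 0.13 over 17 with 0 called, and Top2a, a topoisomerase of dividing cells, had a difference of 0.50 (limma adjusted p = 0.603). Heat shock and ATF4 stress genes had a median of 0.04 over 18, with Psat1 called; Phgdh, the enzyme before it in serine synthesis, had a difference of -0.61 (limma adjusted p = 0.371). Respiratory chain genes were higher by value in 17 of 20 by a median of 0.11, with 0 called and single differences of -0.06 to 0.41.

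**Figure D5:**
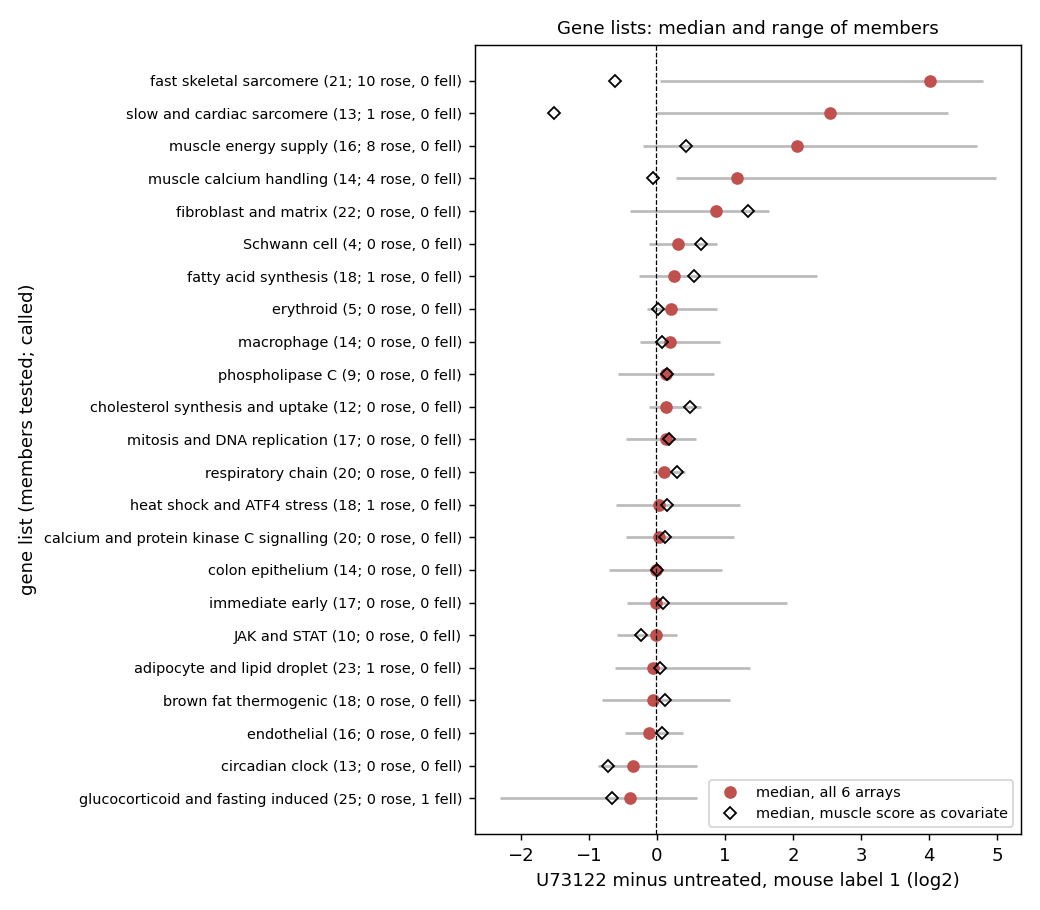
Median difference between U73122-treated and untreated arrays of mouse label 1 for 23 gene lists (red circles; grey lines span the lowest to the highest member) and the median with the muscle score as a covariate (open diamonds), with the number of members tested and called beside each name and a dashed line at the median of all genes. The 4 muscle lists stand at 1.18 to 4.01 without the covariate and at -1.52 to 0.42 with it.

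Whether the response of this label differed from that of the others was tested as the treatment difference of mouse 1 minus the mean of those of mice 5 and 7. That contrast called 20 genes (0.175% of those tested), 18 of them higher for mouse 1, and 19 of the 20 were among the 101. Of the 20, 10 were muscle-associated. Mybpc2 differed by 3.98 (limma adjusted p = 0.00575), where the 3 treatment differences were 4.24 in mouse 1, 0.48 in mouse 5 and 0.04 in mouse 7. Of the 24 rises that were not muscle-associated, 8 were called. Lrmda differed by 1.77 (limma adjusted p = 0.00552), with treatment differences of 1.64, -0.05 and -0.22 for mice 1, 5 and 7, and Fasn by 1.66 (limma adjusted p = 0.0264), with 1.07, -0.11 and -1.06. Fkbp5 and 1190007I07Rik were not called in this contrast (limma adjusted p = 0.269 and 0.273): their treatment differences were -1.26 and -1.89 for mouse 5 and 0.19 and -0.28 for mouse 7. The mouse 5 groups were also uneven in the Y-linked Eif2s3y, which spanned 4.38 to 9.99 there. Its treatment difference was -3.63 for mouse 5, against -3.78 for mouse 1 and 0.14 for mouse 7. The part of this imbalance in the falls was not tested. The count was 2 without treated replicate 1, 4 without treated replicate 2 and 3 without untreated replicate 3, against 164 without treated replicate 3, 33 without untreated replicate 1 and 129 without untreated replicate 2.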

How the data were processed

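RNA of 18 samples was extracted with Trizol, cleaned with RNeasy and DNase I, labelled with biotin by the Ambion MessageAmp kit and hybridised to Illumina mouse bead arrays, per the labels' protocols. The authors deposited a non-normalized table with 1 signal intensity and 1 detection p-value per probe and array, per the file headers, and a table of quantile normalized values on a linear scale (intensity), used only as an alternative. Scanner software and its settings were not stated in these sources. Of 45281 probes, 34885 had 1 gene symbol, 18 several and 10378 none. Between 38.2% and 44.2% of probes were detected per array (42.3% to 44.2% for mouse 1), and 3 arrays a group limit the precision.

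Intensities were background corrected with neqc (offset 16), quantile normalized and put on the log2 scale with limma 3.58.1 in R 4.3.3. Of 21193 probes kept by detection at p under 0.05, 3210 had no usable symbol; 11406 genes were tested, each by its brightest probe, and 4437 had more than 1 probe. One limma model with 6 group means was fitted to 18 arrays (12 residual degrees of freedom), with Benjamini-Hochberg adjustment over all genes. Where no array of a group detected a probe, the fold is a bound, given as "at least". The naming rule took Ucp1, Cidea and the study's targets, the 12 largest rises and falls among called genes and among those not muscle-associated, up to 4 members of each list by smallest p, and the 6 smallest p of the contrast with mice 5 and 7. Other genes that complete a list, a class or an array's description, such as Xist, Acta1, Mb and Nr1d1, were chosen after their values were seen. The members and lists were chosen with earlier results of these data known. The model was tested on simulated data with independent noise and, for each gene, the same spread in all groups. The muscle genes of these arrays have uneven spread and move together, so that test cannot speak for their calls. Part of the genotype and some items set by the naming rule are not reported here.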

Additional observations from a re-analysis of the deposited data

Results flagged for a closer look

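The treatment difference of mouse 1 departed from the mean of those of mice 5 and 7 for 17 named genes by the limma contrast of the difference itself. Among muscle-associated genes the departures were 5.03 for Pvalb, 4.68 for Ckmt2, 4.04 for Actn3, 4.01 for Pgam2, 3.99 for Eno3, 3.98 for Mybpc2, 2.34 for Srl, 2.18 for Myl1 and 1.52 for Wfdc1, a secreted protease inhibitor. The muscle score of the 6 arrays moved with treatment (means of 11.81 on treated and 7.46 on untreated arrays), and its part in these values was not tested.

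Among the other genes the departures were 1.77 for Lrmda, 1.75 for Pon1, 1.66 for Fasn, 1.57 for Slc7a10, 1.34 for Slc25a10, 1.32 for Akr1c12 and -1.07 for Psmb8. Psmb8 had treatment differences of -0.79, -0.32 and 0.88 for mice 1, 5 and 7. Saa1, an acute phase protein, departed by -1.89 through mouse 7, where its treatment difference was 4.09, against 0.13 for mouse 1.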

How the results depend on the processing

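The count of 101 called genes was 99 with the authors' normalized values (88 shared), 98 without background correction, 118 with a filter on the mouse 1 groups, 86 with no filter and 84 with the mean of a gene's probes. It was 63 with robust variances, 6 under a stricter detection filter, p under 0.01 throughout (20 of the 101 could be tested), 18 with muscle-associated genes left out before adjustment, 164 with the muscle score as a covariate (13 shared), 297 without untreated replicates 1 and 3 (34 shared), and 1 in a fit to the 6 arrays alone. The contrast with mice 5 and 7, which called 20 genes, called 4 under that stricter filter, 8 with the mean of probes, 73 with the covariate (5 of the 20 among them), 9 without muscle-associated genes and 150 without untreated replicates 1 and 3 (14 of the 20 among them). Without untreated replicates 1 and 3, only 1 untreated array remained, replicate 2. The untreated group then had no spread of its own, so the counts of that setting cannot be read as a gain or loss of calls. Leaving out 1 array gave 18 to 243 and 2 to 164 calls. With muscle-associated genes left out before adjustment, 37 of the 101 could be tested, and 18 of those stayed called. With the covariate the values of Ckm (-0.31), Tnnc2 (-0.65) and Tnnt3 (-0.64) were below 0. However, these genes belong to the score, which holds its members' values around 0 by construction. Myh1, outside the score, stood at -0.61 there, and Trappc12 at 0.24 with the mean of probes; the cause was not tested.

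With the replicate number as a block the counts were 188 (90 shared with the 101) and 103 (19 shared with the 20). The deviations of same-numbered arrays of mouse 1 correlated at -0.04, 0.24 and 0.21, so the numbers were not taken to pair the samples. Dim probes limit the untreated side: 41 of the 64 muscle-associated rises were detected on fewer than 3 untreated arrays.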

Other observations

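Genes of mast cells were looked at after Cma1 had been seen to rise. Cpa3, the carboxypeptidase of mast cell granules, stood at 7.86, 7.60 and 7.52 on the treated arrays, against 6.83, 6.30 and 6.22 on the untreated arrays, with a difference of 1.21 (limma adjusted p = 0.142). Tpsb2, a tryptase, and Mcpt4, a chymase, had differences of 0.80 and 0.65 (limma adjusted p = 0.306 and 0.397). All 3 were chosen after their values were seen, and none was called.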
